A study of Rattus norvegicus with 6 samples.

Results

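Interferon-stimulated genes were followed in dorsal skin wounds of diabetic rats as a list of 39 gene symbols, 39 of the 18825 genes in the table. All 39 were found and all passed the filter on low counts. They were divided by textbook knowledge into 20 genes induced mainly by type I interferon, 8 induced mainly by type II interferon and 11 that answer to both. The group called DST-MNs holds wounds treated with multifunctional microneedles loaded with spheroids of dental pulp stem cells, which spermidine and TGF-β3 regulate, and the group called control holds untreated wounds. Both groups are male Sprague-Dawley rats made diabetic by a diet rich in fat and sucrose and then streptozotocin, with a wound through the full thickness of the back skin. The labels state neither age nor day of collection. Each group has 3 libraries of messenger RNA, called biological replicates in the labels. Neither group holds microneedles without cells, so the parts of the treatment cannot be told apart.

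Type I interferons (alpha and beta) signal through the receptor IFNAR to a complex with STAT2 and IRF9, which binds a DNA element called the ISRE. Type II interferon (gamma, made mainly by T and NK cells) signals through IFNGR to an element called GAS and induces the factor IRF1. In injured mouse skin, plasmacytoid dendritic cells are a known early source of type I interferon, while IFN-gamma activates macrophages and antigen presentation.

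Upstream sequences of 7 members, from 150 bases before the transcription start to the base before it, were searched for ISRE and GAS cores, and not all hold one. They are taken from RefSeq on build GRCr8, which is not the build of the count table, and were chosen as 4 examples of the classes and the member with the smallest p in each class. Capitals mark matches to the ISRE core GAAANNGAAA or the GAS core TTCNNNGAA on either strand, and each sequence is written 5′ to 3′ on the strand of its gene.
Ifi44: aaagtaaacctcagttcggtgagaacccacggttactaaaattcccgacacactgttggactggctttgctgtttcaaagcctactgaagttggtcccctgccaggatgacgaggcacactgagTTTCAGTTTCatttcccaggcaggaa
Mx1: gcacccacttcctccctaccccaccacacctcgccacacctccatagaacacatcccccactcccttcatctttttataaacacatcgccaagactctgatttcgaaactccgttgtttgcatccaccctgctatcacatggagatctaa
Gbp4: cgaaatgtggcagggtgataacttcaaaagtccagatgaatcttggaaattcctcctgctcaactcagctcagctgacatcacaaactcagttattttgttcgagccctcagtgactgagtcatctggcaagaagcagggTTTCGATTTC
Gbp2: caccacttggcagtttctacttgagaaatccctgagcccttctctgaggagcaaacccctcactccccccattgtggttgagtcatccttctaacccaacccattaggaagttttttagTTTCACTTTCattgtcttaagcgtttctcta
Cxcl9: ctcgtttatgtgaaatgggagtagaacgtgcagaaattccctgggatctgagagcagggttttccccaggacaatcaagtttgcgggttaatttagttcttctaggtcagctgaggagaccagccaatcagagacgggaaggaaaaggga
Irf1: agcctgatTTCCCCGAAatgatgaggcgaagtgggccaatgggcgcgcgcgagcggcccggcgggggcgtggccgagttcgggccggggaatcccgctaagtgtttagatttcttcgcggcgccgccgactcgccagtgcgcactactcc
Bst2: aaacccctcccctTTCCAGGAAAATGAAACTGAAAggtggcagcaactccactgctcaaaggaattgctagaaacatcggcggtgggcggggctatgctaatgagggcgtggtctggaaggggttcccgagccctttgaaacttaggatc
These windows lie at chr2:243303841-243303990 (minus strand) for Ifi44, chr11:50294607-50294756 (minus strand) for Mx1, chr2:233978336-233978485 (plus strand) for Gbp4 and chr2:234005577-234005726 (plus strand) for Gbp2. Those of Cxcl9, Irf1 and Bst2 lie at chr14:16007016-16007165 (plus strand), chr10:38417785-38417934 (plus strand) and chr16:18254968-18255117 (minus strand). Irf1 held a GAS core starting 142 bases before the start site and no ISRE core, and Ifi44, Gbp4 and Gbp2 each held an ISRE core within 31 bases of it. Bst2 held a GAS core and a pair of ISRE cores that overlap one another, so its capitals run together. The windows of Mx1 and Cxcl9 hold neither core.

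Promoters of 31 members were in the reference, each 250 bases before to 50 bases after the start. An ISRE core was found in 19 of them (61.3%), against 3.92% of all 33469 promoters of the same length. The share was alike in the classes, with 8 of 13 mainly type I members, 5 of 8 mainly type II members and 6 of 10 of those answering to both. A GAS core was found in 2 of 13 mainly type I members, 3 of 8 mainly type II members and 4 of 10 of the others, against 8.87% of all promoters. A match describes the letters of a window and is not a binding site.

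Depth was even, from 12545206 to 13818548 counts a library. Values are CPM, counts divided by the TMM-scaled library size, unless TPM, which also divides by gene length, is named. Of 14427 genes tested between the groups, 95 were higher and 17 lower in DST-MNs (quasi-likelihood test of edgeR with Benjamini-Hochberg adjustment, threshold 0.05). Markers of fibroblasts, endothelium, macrophages and keratinocytes were detected, with Krt16 of keratinocytes at 0 in DST-MNs 2. The summed level of 8 keratinocyte markers was 4550, 245 and 1510 CPM in DST-MNs 1, 2 and 3, against 241, 18.1 and 189 CPM in controls 1, 2 and 3. In bulk tissue, fewer cells of a type and less RNA per cell cannot be told apart.

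No interferon-stimulated gene passed the test over all genes, while most had higher fitted levels in treated wounds. The count was 0 of 39 in either direction (edgeR, smallest adjusted p = 0.162), where 0.658% of all genes were called higher and 0.118% lower. At an unadjusted p below 0.05, 11 members were higher and 1 was lower, where 9.80% of all genes were higher and 6.88% lower. The DESeq2 Wald test called 4 higher, Ifi44, Bst2, Irf9 and Rsad2, where it called 4.35% of all genes higher and 2.51% lower. limma-voom and a limma test on TPM called none. The shares of all genes that these tests called are not given here, so that count has no background to be read against. Without control replicate 1, edgeR called 5 higher, Ifi44, Cmpk2, Usp18, Gbp5 and Cxcl11, where 2.14% of all genes were called higher and 0.600% lower. Fitted log2 changes were above 0 for 36 of 39 members, against 50.5% of all genes tested, and their median was 0.71 against 0.00 over all genes. That median was 0.43 without DST-MNs replicate 2 and 1.22 without control replicate 1. In 7 members every treated library lay above every control and in 1, Ifitm3, every treated library lay below, where 12.9% and 10% of all genes did so. The members vary together, so these counts are not independent observations.

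**Figure D1:**
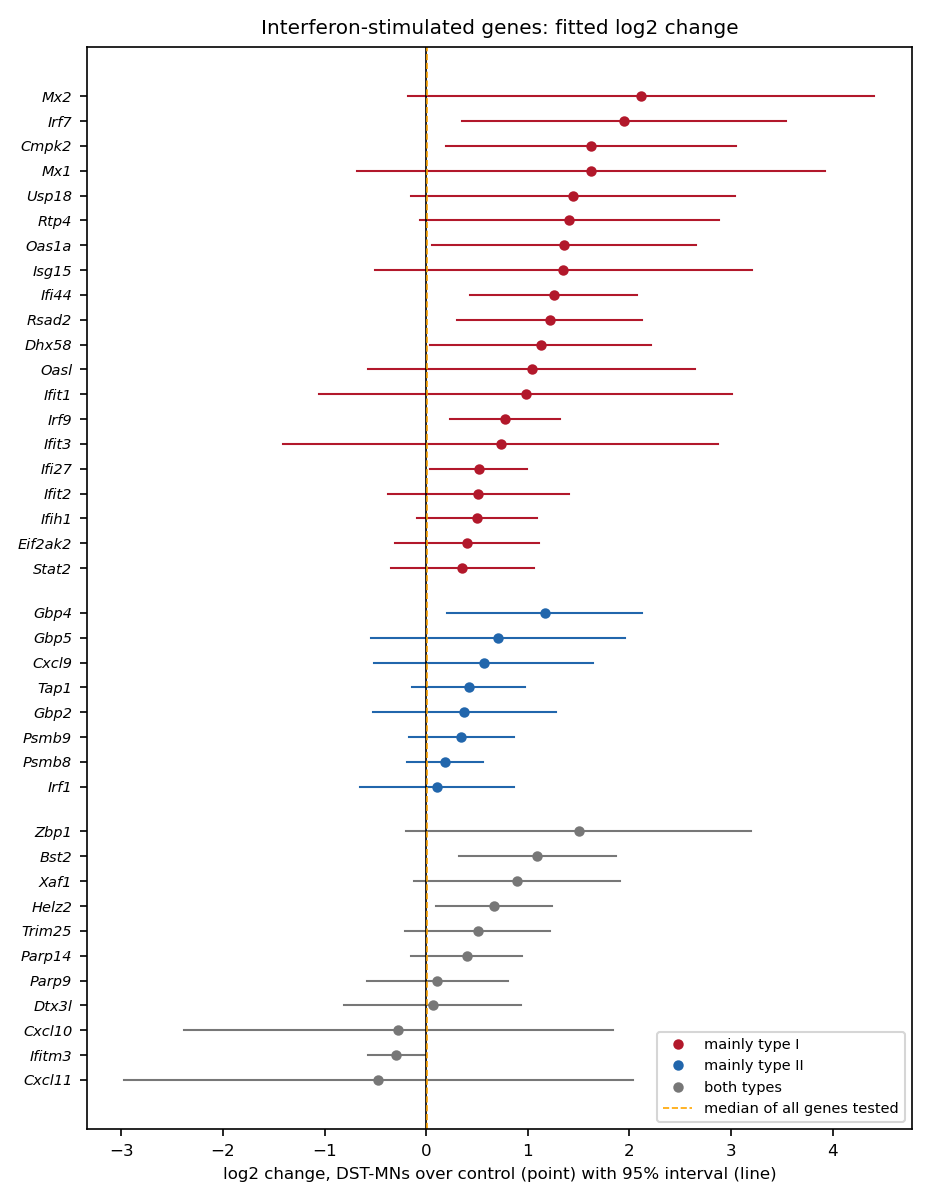
Fitted log2 change of each of the 39 interferon-stimulated genes, DST-MNs over control, with its 95% interval, grouped by the interferon type that mainly induces the gene. All 20 mainly type I genes and all 8 mainly type II genes lie above 0, most with intervals that cross 0, and the dashed line marks the median of all genes tested.

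Among the mainly type I members, the factors Irf7, Irf9 and Stat2 carry the interferon signal. Irf7, the factor that amplifies type I interferon production, stood at 189, 249 and 51.7 CPM in DST-MNs 1, 2 and 3, against 74.9, 23.2 and 29.2 CPM in controls 1, 2 and 3. DST-MNs 3 lay below control 1, so the groups overlapped, with a log2 change of 1.94 (edgeR adjusted p = 0.225, SE 0.67). Irf9, the DNA-binding part of the ISRE complex, stood at 64.1, 92.3 and 58.6 CPM in DST-MNs, against 51.9, 39.6 and 34.1 CPM in controls. Its groups did not overlap, and its log2 change was 0.78 (adjusted p = 0.179 with edgeR, SE 0.23). Stat2, the partner of Irf9, averaged 58.5 ± 19.3 CPM in DST-MNs and 45.8 ± 11.7 CPM in controls (SD, n = 3 each), a log2 change of 0.35 with a 95% interval from -0.35 to 1.06.

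Antiviral effectors of this class had higher means in treated wounds. Ifi44, an interferon-induced protein of the cytoplasm, stood at 61.9, 105 and 65.1 CPM in DST-MNs, against 48.5, 26.0 and 22.6 CPM in controls. It had the smallest p of the 39 members and groups that did not overlap (log2 change 1.25, edgeR adjusted p = 0.162, SE 0.34). Rsad2, which encodes viperin, a radical SAM enzyme that makes a chain-terminating nucleotide, stood at 14.9, 21.5 and 9.27 CPM in DST-MNs, against 9.20, 5.36 and 5.13 CPM in controls. Its neighbour Cmpk2, a nucleotide kinase that supplies this reaction, stood at 11.4, 14.4 and 6.99 CPM in DST-MNs, against 6.96, 1.71 and 1.94 CPM in controls. In both genes DST-MNs 3 was just above control 1, and the log2 changes were 1.21 (SE 0.38) and 1.62 (SE 0.60).

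Mx1, a dynamin-like GTPase that blocks viral nucleocapsids, stood at 71.9, 77.3 and 10.2 CPM in DST-MNs, against 37.5, 10.6 and 3.81 CPM in controls. The third treated library lay below controls 1 and 2, and the log2 change of 1.62 had a 95% interval from -0.68 to 3.92 (edgeR adjusted p = 0.446). Its relative Mx2 had the highest log2 change of the 39, 2.12 (SE 0.96), with levels that spanned 7.33-fold within DST-MNs and 11.9-fold within controls. Isg15, a ubiquitin-like protein attached to newly made proteins, stood at 25.7, 56.5 and 7.70 CPM in DST-MNs, against 19.2, 11.9 and 4.20 CPM in controls. Usp18, the protease that removes ISG15 and dampens IFNAR signalling, averaged 31.8 ± 11.8 CPM in DST-MNs and 11.7 ± 10.9 CPM in controls. The groups overlapped for both genes, with log2 changes of 1.35 (SE 0.78) for Isg15 and 1.44 (SE 0.67) for Usp18. That of Isg15 was 0.52 without DST-MNs replicate 2, and that of Usp18 was 2.54 without control replicate 1.

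The IFIT genes, which encode proteins that bind foreign RNA ends, had intervals that included 0. The log2 change was 0.98 (SE 0.85) for Ifit1, 0.51 (SE 0.37) for Ifit2 and 0.73 (SE 0.90) for Ifit3, while without DST-MNs replicate 2 they were 0.37, 0.02 and -0.38. Without control replicate 1 that of Ifit1 was 2.08 and that of Ifit3 1.22. The oligoadenylate synthetase Oas1a, which activates RNase L, had a log2 change of 1.35 (SE 0.54), but its counts were fractional in 5 libraries and close copies of it exist, so its level is uncertain. The RNA sensors Ifih1 (MDA5), Dhx58 (LGP2) and Eif2ak2 (PKR) had log2 changes of 0.50 (SE 0.25), 1.13 (SE 0.46) and 0.40 (SE 0.30). Oasl, an oligoadenylate synthetase-like protein, and Rtp4, a chaperone of receptors that is strongly interferon-induced, had log2 changes of 1.04 (SE 0.67) and 1.41 (SE 0.62). Ifi27, a small protein of membranes, had the highest mean level per length of any member in DST-MNs, 876 TPM, against 545 TPM in controls, where Ifitm3 was higher at 761 TPM. The groups of Ifi27 did not overlap (log2 change 0.52, SE 0.20).

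**Figure D2:**
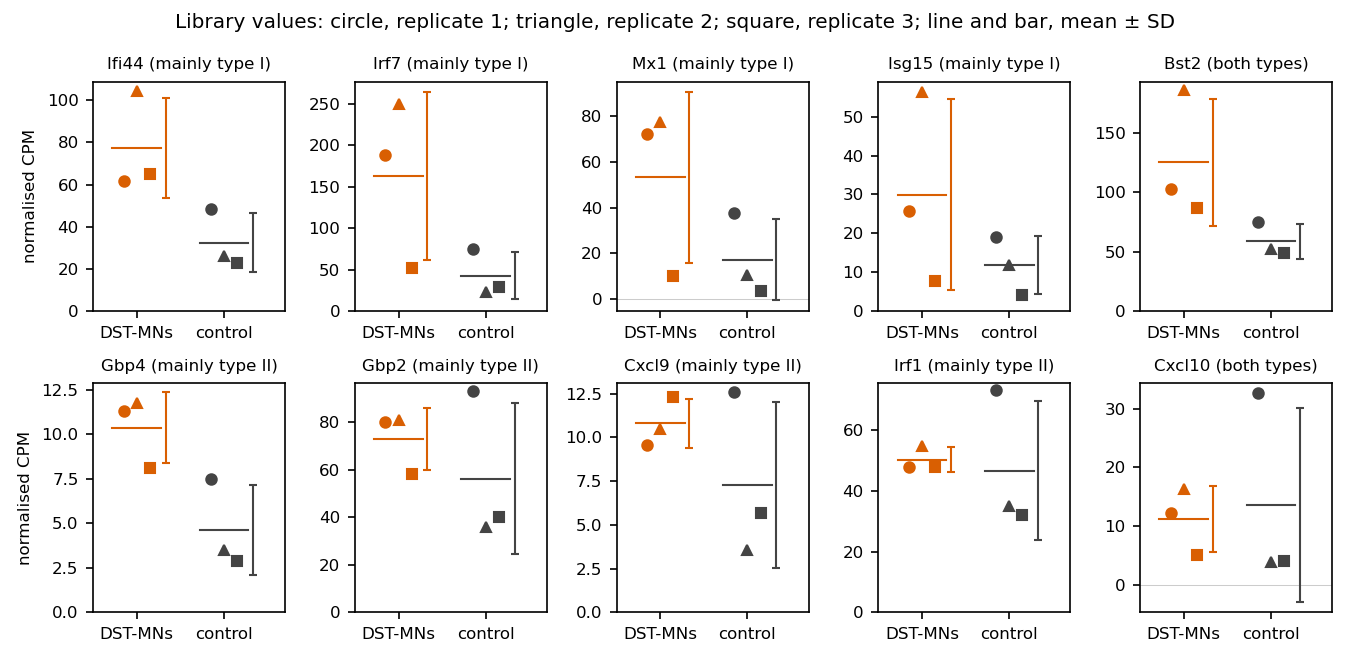
Normalised CPM of 10 interferon-stimulated genes in each library, DST-MNs left of control, with the mean and SD (n = 3 each). Control 1, the circle, is the highest control in all 10 panels, and DST-MNs 3, the square, lies below control 1 for Mx1, Isg15, Irf7, Gbp2, Cxcl9, Irf1 and Cxcl10.

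The mainly type II members had log2 changes from 0.11 to 1.16, within a range that overlaps that of the mainly type I members, 0.35 to 2.12. Gbp4, a guanylate-binding GTPase of cell-autonomous defence, was the only one of 8 with an unadjusted p below 0.05, at 11.3, 11.7 and 8.09 CPM in DST-MNs, against 7.50, 3.49 and 2.88 CPM in controls (log2 change 1.16, edgeR adjusted p = 0.228, SE 0.40). Its groups did not overlap. Gbp2, of the same family, stood at 80.2, 80.9 and 58.0 CPM in DST-MNs, against 93.0, 35.7 and 40.1 CPM in controls. Gbp5, which promotes inflammasome assembly, stood at 18.2, 14.8 and 11.9 CPM in DST-MNs, against 17.5, 4.50 and 5.52 CPM in controls. In Gbp2 the highest library was control 1 and in Gbp5 control 1 lay above 2 of the 3 treated libraries, with log2 changes of 0.38 (SE 0.38) and 0.71 (SE 0.52).

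Irf1, the first transcription factor that IFN-gamma induces, stood at 48.0, 55.0 and 48.0 CPM in DST-MNs, against 73.2, 34.9 and 32.2 CPM in controls. Its log2 change was 0.11 with a 95% interval from -0.65 to 0.86, and it was -0.07 without control replicate 2 and -0.11 without control replicate 3. Cxcl9, a chemokine that draws CXCR3-bearing T cells, stood at 9.56, 10.5 and 12.3 CPM in DST-MNs, against 12.6, 3.57 and 5.68 CPM in controls (log2 change 0.57, SE 0.45). For both genes control 1 was the highest of all 6 libraries. The treated libraries were close to one another, within 1.15-fold for Irf1 and 1.29-fold for Cxcl9.

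The immunoproteasome and peptide transport genes of the MHC class I pathway had control 1 as the highest control too. Psmb9, a catalytic subunit of the immunoproteasome, stood at 31.5, 31.4 and 30.2 CPM in DST-MNs, against 33.1, 21.0 and 19.2 CPM in controls. Tap1, a subunit of the peptide transporter, which shares its promoter region with Psmb9, stood at 55.0, 63.4 and 49.4 CPM in DST-MNs, against 56.6, 38.4 and 30.7 CPM in controls. Psmb8, another catalytic subunit, had a log2 change of 0.19 with a 95% interval from -0.18 to 0.56. Control 1 lay within or above the treated range in all 3 genes.

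Genes that answer to both types had log2 changes of either sign. Bst2, the tetherin that holds virus particles at the cell surface, stood at 103, 186 and 86.6 CPM in DST-MNs, against 75.3, 51.8 and 48.9 CPM in controls, with groups that did not overlap (log2 change 1.09, edgeR adjusted p = 0.18, SE 0.32). Helz2, a helicase and transcriptional coactivator, stood at 43.3, 57.2 and 30.2 CPM in DST-MNs, against 30.7, 27.7 and 23.9 CPM in controls (log2 change 0.67, SE 0.24). Ifitm3, which blocks the entry of enveloped viruses, went the other way, at 147, 173 and 162 CPM in DST-MNs, against 207, 201 and 183 CPM in controls. Its log2 change of -0.30 (adjusted p = 0.281 with edgeR, SE 0.12) was the only negative one with an unadjusted p below 0.05. Zbp1, a sensor of Z-form nucleic acid, and Xaf1, a pro-apoptotic factor, had log2 changes of 1.50 (SE 0.71) and 0.89 (SE 0.42).

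The chemokines Cxcl10 and Cxcl11, ligands of CXCR3 like Cxcl9, were highest in a single control. Cxcl10 stood at 12.2, 16.3 and 5.11 CPM in DST-MNs, against 32.6, 3.96 and 4.12 CPM in controls. Cxcl11 stood at 2.96, 2.72 and 2.75 CPM in DST-MNs, against 10.4, 0.621 and 0.622 CPM in controls. Control 1 was the highest library for both, 8.24-fold above the lowest control for Cxcl10 and 16.8-fold for Cxcl11. The log2 changes were -0.28 (SE 0.88) and -0.47 (SE 1.05). That of Cxcl10 was 0.06 without DST-MNs replicate 3, and without control replicate 1 both were above 0, at 1.46 and 2.15 (edgeR adjusted p = 0.179 and 0.0482). Cxcl11 had 8 counts in control 2 and 8 in control 3, below the minimum count of 10. In the fit without control replicate 1 it therefore passed the filter only through the treated libraries. Parp9 and Dtx3l, partners in a complex that modifies histones and viral proteases, had log2 changes of 0.11 (SE 0.29) and 0.07 (SE 0.36). Without DST-MNs replicate 2 they were at -0.06 and -0.12 and without control replicate 3 at -0.10 and -0.19, and Dtx3l was at -0.06 without control replicate 2. Parp14, another poly-ADP-ribose polymerase family member, and Trim25, a ubiquitin ligase of the RIG-I pathway, were at 0.40 (SE 0.23) and 0.51 (SE 0.30).

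Many members shared an order of libraries. DST-MNs 2 was the highest of the 6 libraries for all 20 mainly type I members, against 15.3% of all genes tested, and for 3 of 8 mainly type II members. Control 1 was the highest control for 38 of 39 members, against 36.3% of all genes, with Trim25 the exception. It was the highest library of all for 9 members, 4 of them mainly type II, 5 answering to both and 0 mainly type I. Control 1 lay above DST-MNs 3 for 31 of 39 members, against 49.4% of all genes. The highest treated library exceeded the lowest by a median of 2.62-fold over mainly type I members, 1.29-fold over mainly type II members and 1.38-fold over all genes. Among controls these medians were 3.09-fold, 2.44-fold and 1.29-fold.

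**Figure D3:**
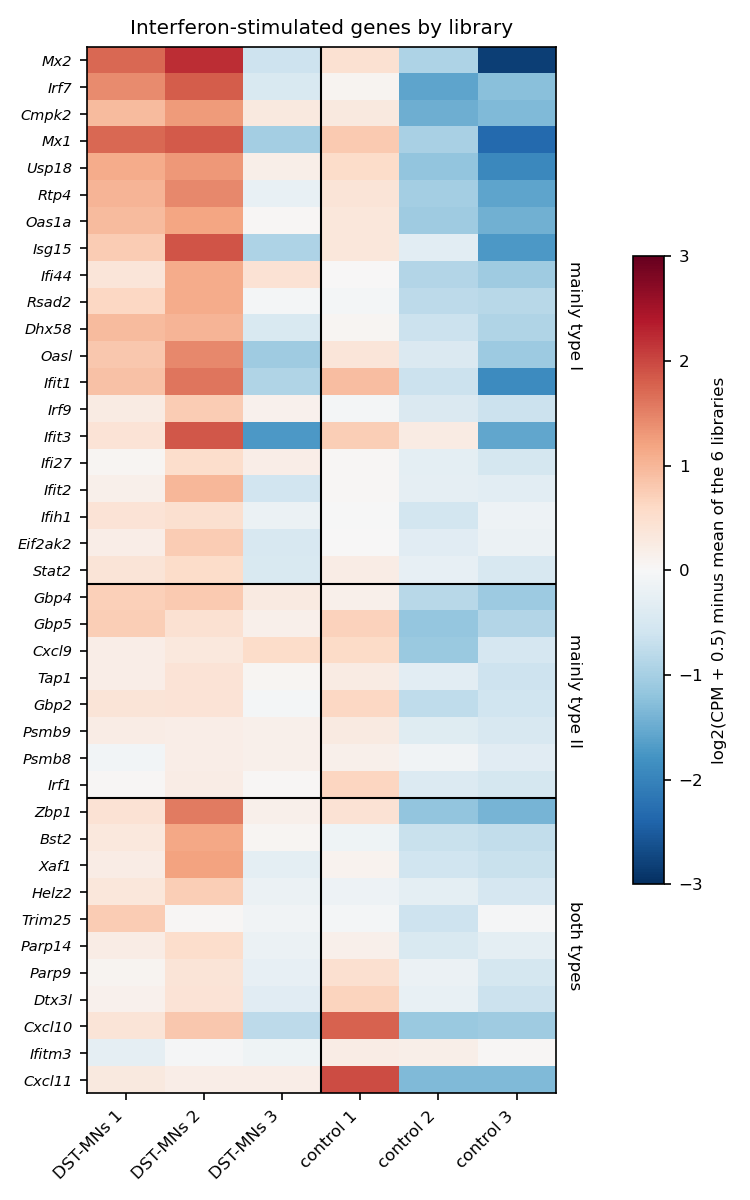
Level of each member in each library, as log2(CPM + 0.5) minus its mean over the 6 libraries, with DST-MNs left of control and the 3 classes separated by lines. DST-MNs 1 and 2 are high for mainly type I genes, DST-MNs 3 is near or below the mean for most of them, and control 1 stands above controls 2 and 3 for 38 of 39 genes.

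Between the classes, the median log2 change was 1.17 over 20 mainly type I members and 0.40 over 8 mainly type II members, and 0.40 over the 11 that answer to both. At an unadjusted p below 0.05, 8 of 20, 1 of 8 and 2 of 11 were higher, where 9.80% of all genes were, so the count of the mainly type II class is near that share. In log2 CPM, the median deviation of mainly type I members from their mean over all libraries was 0.81, 1.27 and -0.45 in DST-MNs, while controls stood at 0.28, -0.66 and -1.21. For mainly type II members it was 0.21, 0.37 and 0.15 in DST-MNs, while controls stood at 0.44, -0.59 and -0.57. Control 1 lay above every treated library in the mainly type II class. Without DST-MNs replicate 2 the class medians were 0.73 for mainly type I and 0.34 for mainly type II, and without control replicate 1 they were 1.60 and 0.82. The mainly type II median was 0.24 without control replicate 2 and 0.21 without control replicate 3.

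**Figure D4:**
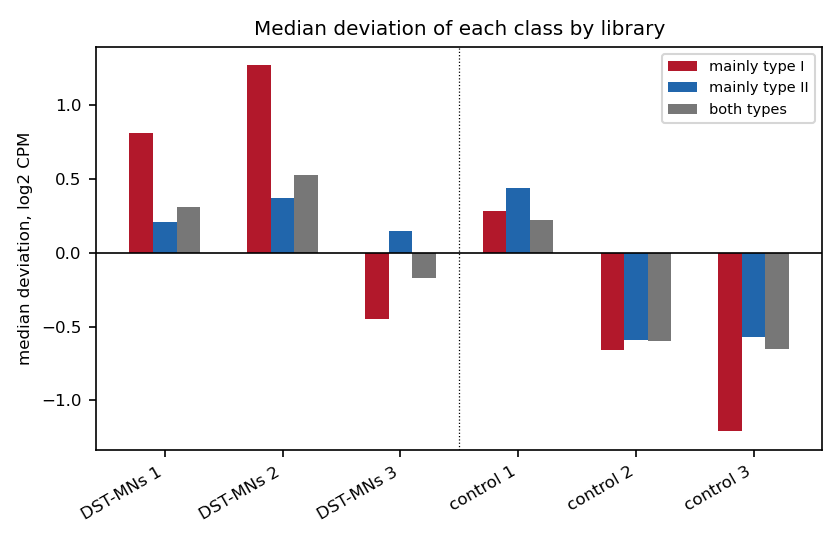
Median deviation from the mean of the 6 libraries, in log2 CPM, for the 3 classes of members, with DST-MNs left of control. The mainly type I class runs from 1.27 in DST-MNs 2 to -1.21 in control 3, and the mainly type II class is highest in control 1 at 0.44.

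The difference of the class medians was 0.77, and it was 0.39 without DST-MNs replicate 2 and 0.49 on TPM. Type I minus type II deviation was 0.60, 0.90 and -0.60 in DST-MNs, while controls stood at -0.16, -0.07 and -0.65, so the groups overlapped, with means of 0.30 ± 0.80 in DST-MNs and -0.29 ± 0.31 in controls (SD, n = 3 each). Of the examples of each class, Mx1 stood to Irf1 as 1.50, 1.41 and 0.213 to 1 in CPM in DST-MNs, against 0.512, 0.302 and 0.118 in controls. Isg15 stood to Gbp2 as 0.320, 0.699 and 0.133 in DST-MNs, against 0.206, 0.333 and 0.105 in controls. The mean log2 ratio was higher in DST-MNs for all 6 pairs of Mx1 or Isg15 with Cxcl9, Gbp2 or Irf1, by 0.42 to 1.54, with two-sided exact permutation p from 0.3 to 0.8 (Benjamini-Hochberg adjusted 0.6 to 0.8). With 3 libraries a group the smallest p possible is 0.1. The 6 ratios reuse the same few genes, so they are not independent results.

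Upstream of these genes, the interferon transcripts that could be matched were scarcely detected. Ifng was counted 0, 0 and 2 times in DST-MNs libraries, and controls gave 1, 0 and 0. Ifna1 had 0, 1 and 2 counts in DST-MNs and 0 in every control. At a total of 3 counts each for Ifng and Ifna1, no difference was detectable at this depth. Ifne had 2, 2 and 6 counts in DST-MNs, against 2, 1 and 2 in controls. Ifnk had 0, 0 and 1 in DST-MNs and 0 in every control. Ifnb1, Ifna2, Ifna4, Ifna5, Ifna11, Ifna16l1, Ifnl1 and Ifnl3 were not analysed here, so nothing is known of their levels. Il12b, a subunit of interleukin 12 and interleukin 23, which drive IFN-gamma production and related T cell responses, had 30, 12 and 14 counts in DST-MNs, against 3, 2 and 2 in controls, with groups that did not overlap. Its log2 change was 2.84 (adjusted p = 0.0833 with edgeR and 0.0309 with DESeq2, SE 0.53). All control counts of Il12b lay below the minimum count, so it passed the filter only through the treated libraries. The NK cell cytokine Il15 and the IFN-gamma inducer Il18 had log2 changes of 0.45 (SE 0.30) and -0.25 (SE 0.31).

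Of 20 receptor and signalling genes, 13 had log2 changes below 0, with a median of -0.16, and none passed over all genes with edgeR. At an unadjusted p below 0.05, Irf3 and Tyk2 were higher and Socs3, Jak2, Ifnlr1 and Il10rb lower, where 9.80% of all genes were higher and 6.88% lower. The count of 2 higher is near the share over all genes. Socs3, a feedback inhibitor of STAT3-type cytokine receptors, stood at 56.6, 124 and 39.7 CPM in DST-MNs, against 258, 292 and 146 CPM in controls (log2 change -1.66, SE 0.46; adjusted p = 0.166 with edgeR and 0.00228 with DESeq2). Jak2, a kinase of the IFN-gamma and other cytokine receptors, had a log2 change of -0.86 (adjusted p = 0.172 with edgeR and 0.0157 with DESeq2, SE 0.25), and Ifnlr1, the type III interferon receptor chain, one of -0.60 (SE 0.19). Socs1, the inhibitor induced by interferon itself, was at -0.54 (SE 0.32). The receptor chains Ifnar1 and Ifngr1 were at -0.09 (95% interval -0.43 to 0.25; 0.03 with total-count scaling) and -0.38 (-0.84 to 0.08). Irf8, a factor of macrophages and dendritic cells, was at 0.49 (SE 0.23).

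Other listed genes of the pathway are no members. Of 24 other mainly type I targets, 22 had log2 changes above 0, with a median of 0.46, and 9 were higher at an unadjusted p below 0.05, where 9.80% of all genes were. Ddx60, a helicase that assists RIG-I, was at 1.72 (SE 0.48, with fractional counts in all 6 libraries), Isg20, an exonuclease, at 0.96 (SE 0.27) and the ADP-ribosyltransferase Parp10 at 0.56 (SE 0.15). DST-MNs 2 was the highest library for 20 of these 24. Of 23 other mainly type II targets, 20 lay above 0 with a median of 0.27, and 3 were higher at an unadjusted p below 0.05, a count near the share over all genes, Cd74 at 1.02 (SE 0.22), Nlrc5 at 0.99 (SE 0.29) and Ciita at 0.63 (SE 0.27). Nlrc5 and Ciita are the master activators of MHC class I and class II genes, and B2m, the light chain of class I, was at 0.49 (SE 0.22). Control 1 was the highest library for 10 of the 23. Among 16 sensors and adaptors the median was 0.20 and 3 had an unadjusted p below 0.05, the DNA sensors Tlr9 and Aim2 at 1.85 (SE 0.64) and 1.26 (SE 0.48) and the RNA sensor Ddx58 (RIG-I) at 0.71 (SE 0.29). None of these 3 lists had a gene past the threshold over all genes with edgeR, while DESeq2 called 3 of the other type I targets (Ddx60, Herc6 and Oas2), 2 of the other type II targets (Cd74 and Nlrc5) and 0 of the sensors, all higher, where it called 4.35% of all genes higher.

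**Figure D5:**
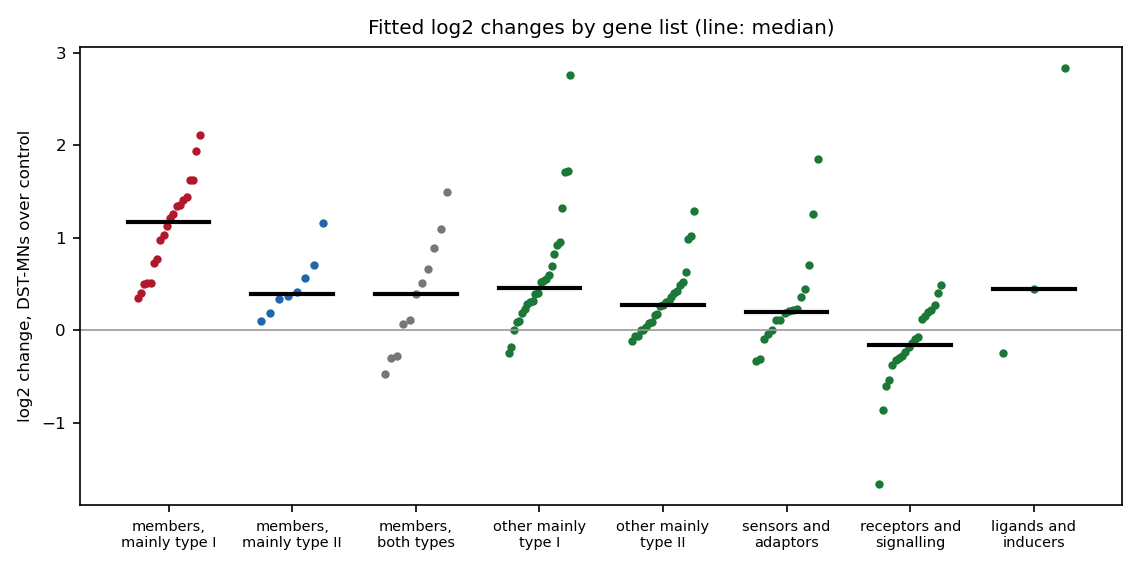
Fitted log2 change, DST-MNs over control, of every tested gene in 8 lists, with the median of each list as a line. The mainly type I members have the highest median, 1.17, and the receptor and signalling list the lowest, -0.16.

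Markers of cells that make or answer to interferon were summed in each library. The 6 plasmacytoid dendritic cell markers ran from 123 to 147 CPM in DST-MNs, against 92.8 to 103 CPM in controls, and did not overlap. Most of that sum was Tcf4, which many cells express, and Ly6d, also a keratinocyte gene, gave 56.2 CPM in DST-MNs 1 and 1.31 CPM in control 1. The more specific Siglech stood at 1.72, 4.11 and 1.41 CPM in DST-MNs, against 1.93, 2.02 and 0.700 CPM in controls, and so overlapped. Its log2 change was 0.64, and those of Spib, Tcf4 and Ly6d, whose groups overlapped too, were 0.62, 0.09 and 4.65. Bcl11a lay above every control in all 3 treated libraries (log2 change 1.68, edgeR adjusted p = 0.166), and Ccr9 did not pass the filter. The 12 T and NK cell markers summed to 251 to 310 CPM in DST-MNs, against 231 to 300 CPM in controls, and the 10 macrophage markers to 2870 to 4410 CPM in DST-MNs, against 3030 to 4130 CPM in controls. The 8 conventional dendritic cell markers summed to 107 to 154 CPM in DST-MNs, against 85.8 to 115 CPM in controls, and the 8 neutrophil markers to 160 to 508 CPM in DST-MNs, against 302 to 809 CPM in controls. These ranges overlapped, but the sums rest on a few abundant genes and single markers differed. The macrophage scavenger receptor Cd163 fell in DST-MNs (log2 change -1.75, edgeR adjusted p = 0.0115), as did the neutrophil granule gene Lcn2 (log2 change -3.35, edgeR adjusted p = 0.0283). Of the other macrophage markers, Mrc1 and Cd14 lay below every control in all 3 treated libraries, with log2 changes of -0.83 and -0.46. Their adjusted p were 0.131 and 0.221 with edgeR, and 0.000977 and 0.112 with DESeq2. Aif1 and Fcgr1a were at -0.24 and -0.13, with groups that overlapped. Cd68, Itgam, Lyz2, Csf1r and Adgre1 went the other way, from 0.20 to 0.73, with groups that overlapped. The dendritic cell markers Xcr1 and Cd207 lay above every control in all 3 treated libraries, at 2.53 and 3.46 on the log2 scale (adjusted p = 0.0559 and 0.102 with edgeR, 7.83e-05 and 0.000309 with DESeq2). Cd207 had 3, 6 and 9 counts in controls, below the minimum count of 10, so it passed the filter only through the treated libraries. It was highest in DST-MNs 1, as was the keratinocyte sum, and a link between these was not tested. Of the other conventional dendritic cell markers, whose groups all overlapped, Clec9a and Ccr7 were at -0.17 and -0.97. Itgax, Flt3, Zbtb46 and Batf3 were at 0.45, 0.51, 0.16 and 0.21. Cd4 made up most of the T and NK cell sum, at 210, 246 and 213 CPM in DST-MNs, against 180, 201 and 211 CPM in controls. Cd3e stood at only 3.2, 5.1 and 2.4 CPM in DST-MNs, against 3.8, 3.4 and 3.0 CPM in controls. The sum therefore follows Cd4 and is no measure of T and NK cell content. Gzmb, a protease of cytotoxic cells, lay below every control in all 3 treated libraries (log2 change -2.25, adjusted p = 0.211 with edgeR and 0.0226 with DESeq2), and the NK cell receptor Klrd1 lay above (log2 change 1.21, edgeR adjusted p = 0.235). Of the other T and NK cell markers tested, whose groups all overlapped, Cd8a was at -0.65. Nkg7, Klrb1a, Cd4, Cd2, Cd3g, Cd3d and Cd3e went the other way, from 0.06 to 0.66. Prf1 and Ncr1 did not pass the filter. The 6 endothelial markers summed to 783 to 1030 CPM in DST-MNs, against 1060 to 1230 CPM in controls, without overlap, and the 7 fibroblast markers to 71600 to 96800 CPM in DST-MNs, against 83300 to 118000 CPM in controls. The 5 B cell markers were near 0, at 1.93 to 5.14 CPM in DST-MNs, against 3.88 to 6.61 CPM in controls. No listed marker was at 0 in all libraries. The part of these cells in the interferon-stimulated gene levels was not tested. The keratinocyte sum was highest in DST-MNs 1, while all 20 mainly type I members were highest in DST-MNs 2. Among controls, the keratinocyte sum and all 20 mainly type I members were highest in control 1. Any link between them was not tested.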

How the data were processed

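Messenger RNA from 6 wound samples was sequenced in read pairs with DNBSEQ-T7, as the labels' protocols state. Groups came from the sample titles, and columns were matched to samples by library name. The authors deposited estimated counts per gene without scaling, per the file headers, and 90.5% to 91.4% of them are whole. The authors also deposited TPM, per the file headers, which sum to 1000000 a library within rounding. FPKM and a signal of scaled counts, also deposited by the authors, were not tested. The build is mRatBN7.2, per the submitters' processing notes. Aligner, counter and strand setting: not given in the sources used here, so genes with close copies or overlapping neighbours are uncertain. The 95% intervals are made from the standard error.

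Expected counts were rounded, filtered with filterByExpr of edgeR 4.0.16 (minimum count 10), scaled with TMM and compared in R 4.3.3 by its quasi-likelihood test, DST-MNs over control. Benjamini-Hochberg adjustment ran over all 14427 genes, threshold 0.05. Biological variation (edgeR's BCV) came to 30.2%, and the test was checked on simulated counts. Deviations used log2 CPM with a prior count of 2. DESeq2 1.42.0 and limma 3.58.1 (voom, and log2(TPM + 1) at a mean TPM of at least 1) were alternatives, with other scalings, filters, a replicate block and each library left out. The members, classes and lists were chosen with earlier results of these data known, and the 6 ratios between members were added after seeing the data. Of 210 list entries, 197 matched by symbol, 4 through the reference or an older symbol, and 9 were not analysed here. Library values were given for the members with the smallest p in each class (5, 5 and 3) and for Mx1, Isg15, Cxcl9, Gbp2 and Irf1, and from other lists the 3 genes with the smallest p and Ifnb1, Ifng, Ifnar1, Ifngr1, Socs1, Irf8, Ciita, Nlrc5 and B2m were named, and a gene of the signalling list is not reported here. Irf3, Tyk2, Il10rb, Herc6, Oas2, Ifna1, Ifne, Ifnk, the single cell type markers and the library values of Cxcl10 and Cxcl11 were chosen after their values were seen. Figures used matplotlib 3.10.9 in Python 3.11.15.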

Additional observations from a re-analysis of the deposited data

How the results depend on the processing

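All genes called numbered 112. They numbered 38 with at least 10 counts in every library and 1070 with DESeq2, and ran from 14 to 402 with 1 library left out, being 23, 34 and 14 without DST-MNs replicates 1, 2 and 3 and 402, 34 and 53 without control replicates 1, 2 and 3. Members called numbered 0, 4 with DESeq2, and 0 to 5 with 1 library left out. The 5 came without control replicate 1 and were Ifi44, Cmpk2, Usp18, Gbp5 and Cxcl11, at adjusted p of 0.0424 to 0.0491, where 2.14% of all genes were called higher and 0.600% lower. The median over members ran from 0.43 without DST-MNs replicate 2 to 1.22 without control replicate 1, and the type I minus type II difference from 0.39 without DST-MNs replicate 2 to 0.99 without DST-MNs replicate 3, or 0.49 on TPM. Scaling by total counts moved the median of all genes to 0.12 and called 134 genes.

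Signs changed for 8 of 61 named genes, all with log2 changes that missed the threshold in the reported fit. Cxcl10 was at 0.28 with the replicate block, 0.33 with voom and 0.40 on TPM, and Cxcl11 at 0.71, 0.78 and 0.55. Ifnar1 was at 0.03 with total counts and 0.03 on TPM. With 1 library left out, Cxcl10 ran from -0.72 to 1.46, Cxcl11 from -0.98 to 2.15, Ifnar1 from -0.19 to 0.01, Ifit3 from -0.38 to 1.22, Parp9 from -0.10 to 0.44, Dtx3l from -0.19 to 0.53, Irf1 from -0.11 to 0.58 and Il18 from -0.53 to 0.08. The cause was not tested. Same-numbered libraries of the groups correlated at -0.02, 0.10 and 0.11. DST-MNs 2 and 3 correlated best with the control of their own number, while DST-MNs 1 correlated best with control 3 (0.10). These low values cannot show whether the numbers pair the libraries. With the replicate block 123 genes and 0 members were called. Oas1f did not pass the filter of at least 10 counts in every library and has no value there. Depth limits the interferon genes that were matched, which had few counts or none in each library.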

Other observations

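Relatives of the members by symbol, chosen after their values were seen, held a gene past the threshold, where edgeR called 0.658% of all genes higher. They were of the Gbp, Ifi27, Ifit and Oas families, and no other relative tested passed with edgeR. Oas1f, a rat gene of the oligoadenylate synthetase family, had 53, 22 and 41 counts in DST-MNs, against 2, 1 and 1 in controls (log2 change 4.65, edgeR adjusted p = 0.0235, SE 0.55). All control counts of Oas1f lay below the minimum count, so it passed the filter only through the treated libraries. It was higher in all 3 treated libraries than in every control, and DST-MNs 2, the highest library for the mainly type I members, was the lowest treated library here. The adjusted p of Oas1f rose past the threshold when DST-MNs replicate 1 (0.0925), DST-MNs replicate 3 (0.104), control replicate 2 (0.127) or control replicate 3 (0.103) was left out. Leaving out DST-MNs replicate 2 gave 0.0421 and control replicate 1 gave 0.0324. The value was 5.22e-05 with DESeq2, 0.039 with the replicate block and 0.0213 to 0.045 with the other scalings, no filter, voom and TPM. Its counts were fractional in 5 libraries and close copies exist, so its level is uncertain. Oas1b, of the same cluster, was at 1.73 on the log2 scale (adjusted p = 0.21 with edgeR and 0.0251 with DESeq2) and Oas1k at -0.63 (adjusted p = 0.678 with edgeR and 0.691 with DESeq2). Ifi27l2b, a relative of Ifi27, was at 1.32 (edgeR adjusted p = 0.226 and DESeq2 adjusted p = 0.037).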
